A study of Sus scrofa with 10 samples.

Results

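DDB1 is the adaptor subunit of the CUL4 ubiquitin ligases, and the results here follow it with 8 genes that build or service that ligase. The 9 genes were taken by name from the biochemistry of the complex and not by any measured value. They are DDB1 itself, the scaffolds CUL4A and CUL4B, the RING subunit RBX1, the DDB1-bound proteins DDA1 and DET1, the ubiquitin-like modifier NEDD8, the NEDD8-conjugating enzyme UBE2M and the exchange factor CAND1. All 9 were found among the 24358 genes listed, with 15 isoforms in all. DET1 carries no symbol there, only its identifier (ENSSSCG00000005103), and was matched through a table of Ensembl names. The 9 genes were all above the filter on low values, a mean of at least 1 FPKM (fragments scaled to transcript length and library size) over the libraries, which 8476 genes passed.

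RNA came from pig morulae, embryos in which the blastomeres compact before a blastocyst forms. There were 5 libraries of morulae grown from oocytes that had received a small interfering RNA against DDB1 (DDB1_KD), and 5 from oocytes given a non-specific control siRNA (NC). Every embryo in both groups was made by parthenogenetic activation of an oocyte matured in vitro, without sperm, so all carried maternal chromosomes only. The series is concerned with programmed cell death and lineage formation after loss of DDB1, and the comparison here asked how the ligase that DDB1 belongs to was expressed. The labels do not say whether libraries came from separate cultures, nor how many embryos each held, so p-values measure the spread between these libraries, which may be partly technical.

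In a CUL4 ligase the cullin is the scaffold. One end binds RBX1, which brings in a ubiquitin-loaded E2 enzyme, and the other end binds DDB1, which holds one of many interchangeable substrate receptors. The ligase becomes active when NEDD8 is joined to the cullin. That step is carried out by an E1, by UBE2M as E2, and by DCN-type helper proteins. The COP9 signalosome removes NEDD8 again, and CAND1 then binds the bare cullin and lets the receptor module be exchanged. Substrates are known to include the replication licensing factor CDT1 and the repair protein XPC, and DDB1 with DDB2 senses ultraviolet damage. In mice, loss of Ddb1 is lethal during embryonic development.

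Totals ran from 32466912 to 50911295 estimated counts per library, and 13522 to 14755 genes had a count. Log2 expression correlated between any pair of libraries at 0.942 to 0.982. Of 10 morula markers, 8 were tested, and their sum was 137 to 659 FPKM in DDB1_KD and 323 to 841 FPKM in NC. Among them was POU5F1, the pluripotency factor OCT4, at 59.2 ± 36.9 FPKM over the 5 DDB1_KD libraries and 81.0 ± 29.3 FPKM over the 5 NC libraries (SD). Of the 8 markers, 4 had a higher and 4 a lower level in DDB1_KD. Their log2 fold changes ran from -1.02 for KRT18 to 0.54 for NANOG, and 0 passed in edgeR. KRT18, a large part of the sum, ran from 3.71 to 332 FPKM in DDB1_KD and from 119 to 453 FPKM in NC. Summed markers of cumulus cells reached at most 0.268 FPKM in DDB1_KD and 0.118 FPKM in NC, and FSHR, AMH, INHA and CYP11A1 were listed at 0 in every library. Fibroblast markers summed to 0.0867 to 1.47 FPKM in DDB1_KD and 0.2 to 1.38 FPKM in NC. Blood cell markers summed to 2.23 to 8.26 FPKM in DDB1_KD and 2.46 to 11.7 FPKM in NC, with HBB, a globin, reaching 5.29 FPKM in DDB1_KD and 9.97 FPKM in NC. Across genes the DDB1_KD libraries were more uneven. The coefficient of variation (SD over mean) was higher in DDB1_KD than in NC for 5965 of 8476 tested genes, 70.4%, and its median was 38.0% in DDB1_KD and 28.2% in NC.

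DDB1 was the one member whose groups did not overlap, and its level in DDB1_KD morulae was 37.8% of the NC mean. It lies on chromosome 2 at 10171698 to 10200920, plus strand (susScr11), and is listed with 1 isoform of 28 exons. DDB1 measured 0.920, 1.304, 1.28, 1.304 and 1.55 FPKM in the DDB1_KD libraries, against 3.59, 3.12, 2.53, 3.15 and 4.44 FPKM in NC. Every DDB1_KD library was therefore below every NC library, and none was near 0. The means were 1.27 ± 0.227 FPKM over the 5 DDB1_KD libraries and 3.37 ± 0.708 FPKM over the 5 NC libraries (SD). The difference on log2(FPKM + 1) had an exact two-sided permutation p of 0.00794, the smallest that assigning 10 libraries to 5 and 5 can give.

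The lower DDB1 level was also the clearest difference in the fit across all genes, yet it did not pass the adjustment there. edgeR's quasi-likelihood test gave a log2 fold change of -1.39 with an SE of 0.28, equal to 38.2% of the NC level with a 95% interval of 25.1% to 58.2%. Its unadjusted p of 0.00028 was the smallest of the 8476 genes, and its Benjamini-Hochberg adjusted p was 0.958. Of all tested genes, 0% passed in edgeR, and 3.4% had an unadjusted p under 0.05, 1.44% with a lower and 1.96% with a higher level in DDB1_KD. DDB1 was the 1 member among them. With DESeq2 the adjusted p of DDB1 was 0.0069, in a test that called 2 genes, 0.0236% of those tested. Over all tested genes, 35, or 0.413%, had groups that did not overlap in FPKM, of which 0.224% were lower and 0.189% higher in DDB1_KD.

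In percent of the NC mean, DDB1 mRNA ranged less widely between the DDB1_KD libraries than between the NC libraries. Relative to each group's own level the spread was similar, with the highest value 1.69 times the lowest in DDB1_KD and 1.75 times in NC. Relative to the NC mean the 5 DDB1_KD libraries held 27.3%, 38.8%, 37.9%, 38.7% and 46.2%, while NC libraries spanned 75.1% to 132%. The value of 27.3% rests on 142 estimated counts, for which counting error alone is 8.39%. Leaving out 1 library at a time moved the log2 fold change between -1.49, without DDB1_KD 5, and -1.28, without DDB1_KD 1. These are bulk libraries, in which fewer cells of a type and less RNA per cell cannot be told apart.

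**Figure D1:**
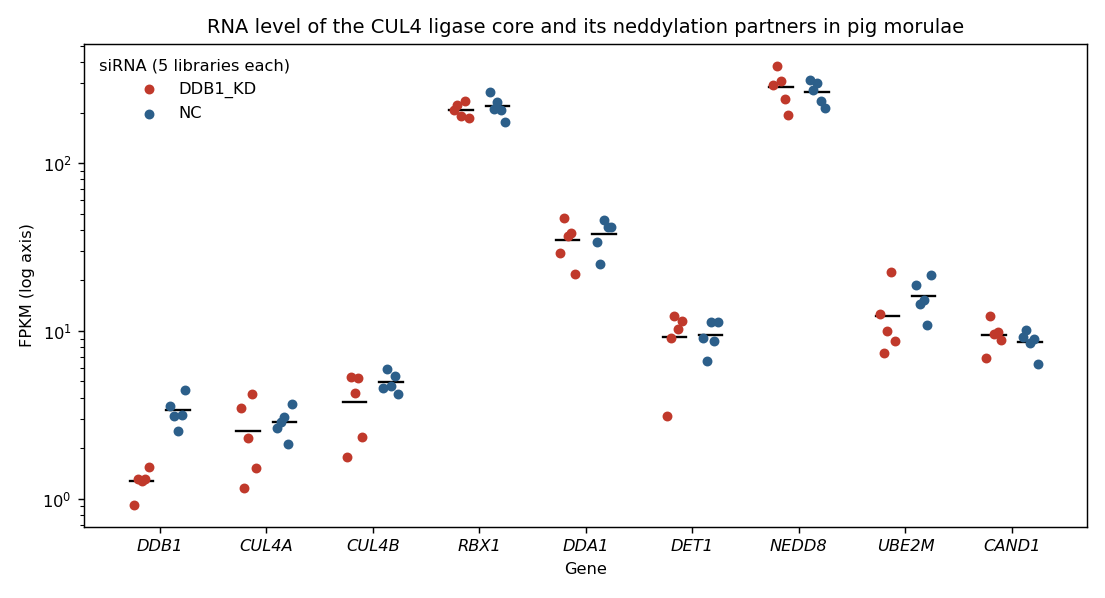
Deposited FPKM of the 9 genes in each library (log scale on the vertical axis), DDB1_KD left of NC within each gene, with a bar at the mean of 5 libraries. DDB1 is the gene without overlap, at 0.920 to 1.55 FPKM in DDB1_KD and 2.53 to 4.44 FPKM in NC.

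Both CUL4 scaffolds had overlapping groups. CUL4A and CUL4B are closely related cullins that each form a ligase with DDB1 and RBX1; CUL4B has a longer amino-terminal part with a nuclear localisation signal. CUL4A (chromosome 11, 78557024 to 78589193, plus strand, 1 isoform of 20 exons) measured 3.45, 1.17, 2.31, 4.24 and 1.52 FPKM in DDB1_KD, against 2.64, 2.88, 3.06, 2.11 and 3.69 FPKM in NC. Both the highest and the lowest CUL4A values of the series were in DDB1_KD libraries. The means were 2.54 ± 1.29 FPKM over the 5 DDB1_KD libraries and 2.88 ± 0.579 FPKM over the 5 NC libraries (SD). The edgeR log2 fold change was -0.19 with an SE of 0.35, and its 95% interval allowed 52.2% to 148% of the NC level. Leaving out DDB1_KD 4 gave -0.38 and leaving out DDB1_KD 2 gave 0.005, so no direction held for CUL4A.

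CUL4B (chromosome X, 98668887 to 98730570, minus strand) measured 1.76, 5.32, 4.27, 5.27 and 2.32 FPKM in DDB1_KD, against 4.56, 5.91, 4.71, 5.42 and 4.22 FPKM in NC. Libraries DDB1_KD 1 and DDB1_KD 5 were below all of NC, and DDB1_KD 2, 3 and 4 were within the NC range. The means were 3.79 ± 1.66 FPKM over the 5 DDB1_KD libraries and 4.96 ± 0.685 FPKM over the 5 NC libraries (SD). CUL4B had an edgeR log2 fold change of -0.42 with an SE of 0.30, an interval of 47.8% to 117% of the NC level and an exact permutation p of 0.230. The fold change was -0.23 without DDB1_KD 1. CUL4B overlaps MCTS1 on the other strand by 4116 bases, but MCTS1 stood at 0.0887 to 1.39 FPKM in DDB1_KD and 0.0796 to 0.793 FPKM in NC. The sources used here do not give whether strand entered the counting.

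The balance of the 2 scaffolds varied widely among DDB1_KD libraries. The ratio of CUL4B to CUL4A in FPKM was 0.511, 4.56, 1.85, 1.24 and 1.52 in DDB1_KD, and 1.73, 2.05, 1.54, 2.56 and 1.14 in NC. CUL4B was the more abundant scaffold per length in all libraries except DDB1_KD 1. As a log2 ratio this was 0.58 ± 1.09 over the 5 DDB1_KD libraries and 0.78 ± 0.43 over the 5 NC libraries (SD), a difference of -0.195 with an exact permutation p of 0.714. The difference turned to 0.183 without DDB1_KD 1 and was -0.574 without DDB1_KD 2, so it had no steady direction. The library with the lowest ratio (DDB1_KD 1) had high CUL4A and low CUL4B, and the one with the highest (DDB1_KD 2) had low CUL4A and high CUL4B.

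RBX1, the small RING protein shared by most cullin ligases, was abundant, and its groups overlapped. It lies on chromosome 5 at 7500489 to 7515333, minus strand, and overlaps no other gene. RBX1 measured 208, 223, 190, 235 and 187 FPKM in DDB1_KD, against 265, 210, 232, 209 and 176 FPKM in NC, and the groups covered much the same range. The edgeR log2 fold change was -0.06 with an SE of 0.15, the smallest SE of the 9 genes. Its interval of 76.3% to 120% of the NC level excludes a loss as large as that of DDB1, though not a smaller change.

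DDA1 and DET1 bind DDB1, and with a COP1 or UBE2E partner they are known from human cells as part of the DCX-DET1-COP1 and DDD-E2 complexes. DDA1 (chromosome 2, 60367172 to 60376925, minus strand) measured 29.2, 47.0, 36.9, 38.6 and 21.9 FPKM in DDB1_KD, against 33.8, 25.2, 46.1, 41.7 and 41.4 FPKM in NC. The highest and the lowest DDA1 values were both in DDB1_KD. Its edgeR log2 fold change was -0.12 with an SE of 0.22, and the interval covered 66.3% to 128% of the NC level.

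DET1 (chromosome 1, 191263436 to 191284968, plus strand) measured 3.13, 9.04, 12.3, 10.3 and 11.4 FPKM in DDB1_KD, against 9.11, 6.65, 11.3, 8.67 and 11.3 FPKM in NC. Library DDB1_KD 1 was the low one, and the other 4 lay around the NC range. The edgeR log2 fold change was -0.01 with an SE of 0.33, an interval of 60.8% to 163% of the NC level. Without DDB1_KD 1 the fold change was 0.23. Either value is within its error.

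The 3 genes of the NEDD8 cycle also had overlapping groups. NEDD8 itself, the modifier, was the most abundant of the 9 genes, on chromosome 7 at 75070161 to 75085899, plus strand. It measured 292, 380, 309, 240 and 194 FPKM in DDB1_KD, against 315, 275, 299, 235 and 212 FPKM in NC. DDB1_KD 2 was the highest library and DDB1_KD 5 the lowest, with NC in between. The edgeR log2 fold change was 0.09 with an SE of 0.20, an interval of 79.0% to 143% of the NC level.

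UBE2M, the E2 that passes NEDD8 to cullins bound to RBX1, had its highest and its lowest values in DDB1_KD. It measured 12.7, 7.43, 9.94, 22.6 and 8.68 FPKM in DDB1_KD, against 18.7, 14.4, 15.3, 10.9 and 21.6 FPKM in NC. DDB1_KD 2, 3 and 5 were below all of NC, and DDB1_KD 4 was above all of it. The edgeR log2 fold change was -0.41 with an SE of 0.28 and an exact permutation p of 0.190 on log2(FPKM + 1). It was -0.67 without DDB1_KD 4 and -0.26 without DDB1_KD 2.

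The deposited UBE2M model is uncertain. It is listed on chromosome 6 at 63102157 to 63108288, minus strand. It runs 3375 bases past the lower coordinate that RefSeq gives in Sscrofa11.1, which is the downstream end on this strand. The extra stretch covers CHMP2A on the same strand and reaches TRIM28 on the other, with 2820 bases in common. TRIM28 stood at 19.2, 10.3, 10.4, 34.0 and 14.3 FPKM in DDB1_KD and at 20.4, 16.99, 17.5, 18.3 and 22.9 FPKM in NC. DDB1_KD 4 was highest and DDB1_KD 2, 3 and 5 were below all of NC for TRIM28, as for UBE2M, while CHMP2A did not follow that order. CHMP2A stood at 72.7, 91.1, 99.7, 49.98 and 44.3 FPKM in DDB1_KD and at 80.5, 82.1, 130.8, 42.8 and 55.2 FPKM in NC, with DDB1_KD 2 and 3 high and DDB1_KD 4 low. A1BG, on the same strand, spans the whole model at 0.113 to 1.04 FPKM in DDB1_KD and 0.217 to 1.16 FPKM in NC. The part of these genes in the UBE2M counts was not tested.

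CAND1, which binds cullins that carry no NEDD8, also had overlapping groups (chromosome 5, 31657501 to 31699839, plus strand). It measured 6.91, 12.3, 9.56, 9.81 and 8.80 FPKM in DDB1_KD, against 9.26, 10.2, 8.49, 8.94 and 6.36 FPKM in NC. The edgeR log2 fold change was 0.13 with an SE of 0.20, and the interval was 80.9% to 147% of the NC level. For RBX1, NEDD8 and CAND1 the lower end of the interval was above 76%. For DDA1, DET1, CUL4A, CUL4B and UBE2M, at 66.3%, 60.8%, 52.2%, 47.8% and 49.7%, it was not.

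Set side by side, 0 of the 9 genes passed in edgeR and 1, DDB1, had groups without overlap. Adjusted p-values of the 8 partners ran from 0.958 to 0.998 in that test. The 8 partners' fold changes ran from -0.42 for CUL4B to 0.13 for CAND1. All of them lay within the central 95% of tested genes, which ran from -0.82 to 0.96. DDB1 at -1.39 was outside it, and 39 genes had a lower fold.

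The 9 genes spanned a wide range of levels per transcript length. In DDB1_KD the order of mean FPKM was NEDD8, RBX1, DDA1, UBE2M, CAND1, DET1, CUL4B, CUL4A and DDB1. In NC it was NEDD8, RBX1, DDA1, UBE2M, DET1, CAND1, CUL4B, DDB1 and CUL4A. NEDD8 was above RBX1 in 5 of 5 libraries of each group, although their ranges overlapped. The step between RBX1 and DDA1 was free of overlap in both groups. In NC the neighbours DDA1 and UBE2M, and CAND1 and CUL4B, were also free of overlap. CAND1 and CUL4B, not neighbours in DDB1_KD, were apart there too, at 6.91 to 12.3 and 1.76 to 5.32 FPKM. The other neighbours in either order overlapped.

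NEDD8 and RBX1 stood at percentiles 96.5 and 95.9 of the 8476 tested genes by mean FPKM over all libraries. The cullins and DDB1 were low, with CUL4B at percentile 43.0, CUL4A at 29.6 and DDB1 at 25.1. In NC, DDB1 exceeded CUL4A in 4 of 5 libraries, whereas CUL4A exceeded DDB1 in 3 of 5 DDB1_KD libraries.

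The relation of DDB1 to each partner within the same library was then taken, a measure chosen after the data had been seen. It carries the DDB1 difference itself, so it is no independent evidence of that difference. Its p also depends on how widely the partner varied between libraries. A ratio that did not pass therefore does not show that the partner was lower along with DDB1. The ratio of DDB1 to CUL4A in FPKM was 0.267, 1.12, 0.553, 0.308 and 1.02 in DDB1_KD, against 1.36, 1.09, 0.825, 1.49 and 1.20 in NC. Libraries DDB1_KD 2 and 5, where CUL4A was low, had ratios within the NC range. The log2 ratio differed by -1.03, with an exact permutation p of 0.0556 and 0.0635 after adjustment over the 8 partners.

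For CUL4B the ratio was 0.522, 0.245, 0.299, 0.248 and 0.670 in DDB1_KD, against 0.788, 0.529, 0.537, 0.581 and 1.05 in NC. Here it was DDB1_KD 5 that stood inside the NC range, with DDB1_KD 1 just under it. The log2 ratio differed by -0.83, adjusted exact p = 0.0714. Thus the ratio of DDB1 to neither scaffold passed the threshold with all libraries. Without DDB1_KD 5 both passed, at an adjusted exact p of 0.0238 each, and that to CUL4A also passed without DDB1_KD 2, at 0.0254.

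The ratios of DDB1 to the remaining 6 partners passed the threshold. How many of all tested genes would pass in a partner's place was not computed, so the 6 calls are no result about the partners. The log2 differences for CUL4A and CUL4B were negative too, at -1.03 and -0.83, so the threshold alone sets these 6 apart. With RBX1, NEDD8 and CAND1 the groups did not overlap, at log2 differences of -1.27, -1.39 and -1.46 and an adjusted exact permutation p of 0.0212 each. The DDB1 to CAND1 ratio, for example, was 0.133, 0.106, 0.134, 0.133 and 0.177 in DDB1_KD, against 0.388, 0.308, 0.298, 0.352 and 0.698 in NC. With DDA1 and DET1 the log2 differences were -1.20 and -1.19, adjusted exact p = 0.0254 each, and with UBE2M the difference was -0.86, adjusted exact p = 0.0423. The ranges overlapped in these 3. With a pseudocount of 1 in place of 0.1 the calls for DET1 and UBE2M were lost, at adjusted exact p = 0.0635 and 0.175. The DDB1 to UBE2M call was lost without any 1 of 7 libraries, and that to DDA1 without DDB1_KD 1 or 4.

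**Figure D2:**
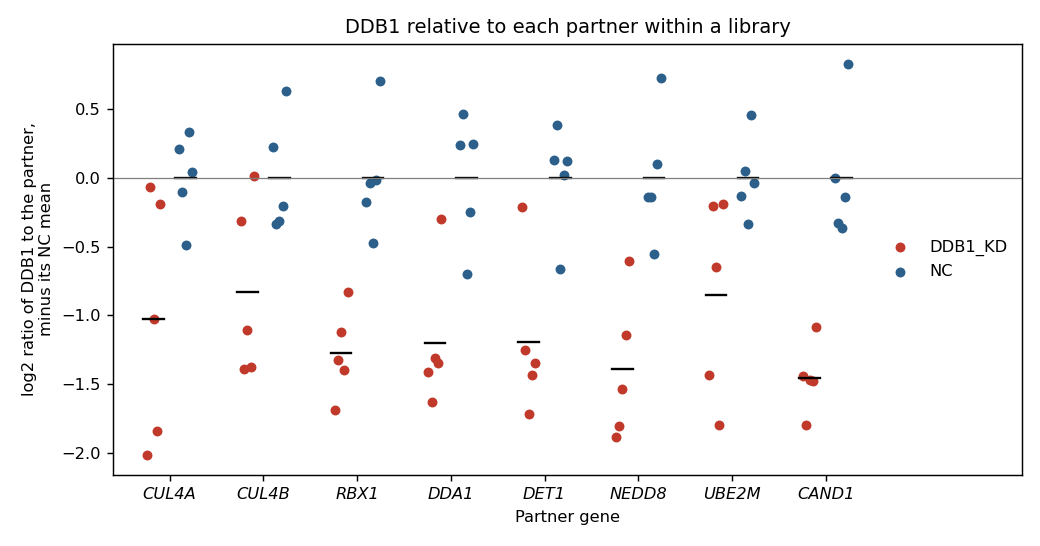
Log2 ratio of DDB1 to each of 8 partners per library (from FPKM + 0.1) with the NC mean subtracted, so that 0 is the NC mean (vertical axis), DDB1_KD left of NC, with a bar at the group mean. Groups are apart for RBX1, NEDD8 and CAND1 and overlap for CUL4A, CUL4B, DDA1, DET1 and UBE2M.

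CUL4B and DET1 are the members with counts in more than 1 isoform. CUL4B is listed with 5, of which 3 had counts. The main one, ENSSSCT00000043111, made up 86.2%, 97.8%, 99.0%, 95.3% and 95.5% of the summed FPKM of the CUL4B isoforms in DDB1_KD, against 99.99%, 99.99%, 99.99%, 97.9% and 99.4% in NC. That sum is not the FPKM deposited for the gene. DDB1_KD 1 had the lowest share, and the 3 NC values of 99.99% are those of libraries with counts in the main isoform alone. The minor isoform ENSSSCT00000013782 had 60, 29, 11, 46 and 7 estimated counts in DDB1_KD, and 0, 0, 0, 33 and 8 in NC. It had a count in 5 of 5 DDB1_KD and 2 of 5 NC libraries, and a count of 0 allows up to 3. A further isoform, ENSSSCT00000028601, had 22 estimated counts in DDB1_KD 5 and 0 in the other libraries.

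The mean share of the main CUL4B isoform was 94.7 ± 5.05% over the 5 DDB1_KD libraries and 99.5 ± 0.915% over the 5 NC libraries (SD). The difference of -4.72 percentage points had an exact permutation p of 0.0159, adjusted over 2 genes 0.0317. It was -2.57 points without DDB1_KD 1, with an adjusted exact p of 0.0635, and without any 1 of the NC libraries the adjusted exact p was 0.0635 to 0.0952. The minor isoform rests on few counts.

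DET1 has 2 isoforms, one of 5 exons (ENSSSCT00000024154) and one of 4 (ENSSSCT00000005625). The 5-exon isoform held 10.5%, 87.6%, 82.5%, 99.9% and 92.5% of the summed FPKM of both DET1 isoforms in DDB1_KD, against 99.95%, 80.4%, 84.5%, 98.5% and 91.0% in NC. One library, DDB1_KD 1, had 45 estimated counts of the 5-exon and 276 of the 4-exon isoform, and the others were all above 80%. The difference in mean share was -16.3 points with an exact permutation p of 0.468, and -0.28 points without DDB1_KD 1. Across 11250 isoforms tested, 1 passed in edgeR, 0.00889%, and it belonged to none of the 9 genes.

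**Figure D3:**
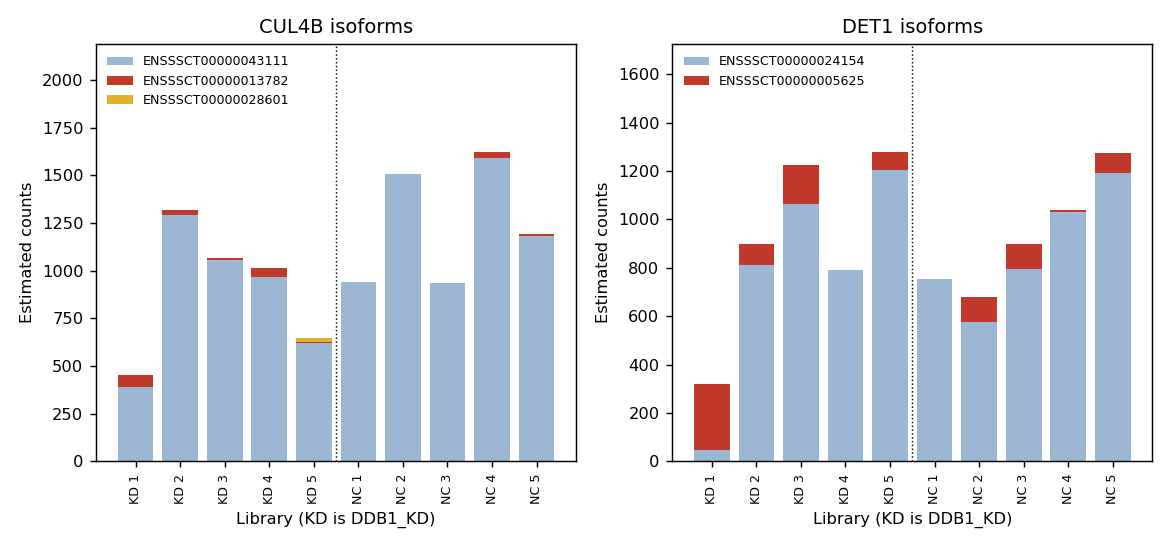
Estimated counts of each isoform of CUL4B (left) and DET1 (right) stacked per library (vertical axis), DDB1_KD libraries left of NC. In DDB1_KD 1 both genes are low, and most DET1 counts, 276 beside 45, are those of the 4-exon isoform ENSSSCT00000005625.

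Spread within DDB1_KD was a common trait of the 9 genes, as it was of genes at large. The coefficient of variation was higher in DDB1_KD for 7 of the 9, beside 70.4% of all tested genes. It was 50.9% in DDB1_KD and 20.1% in NC for CUL4A, and 43.8% in DDB1_KD and 13.8% in NC for CUL4B. The highest value was over 3 times the lowest for CUL4A, CUL4B, DET1 and UBE2M in DDB1_KD, and for 0 members in NC. DDB1 itself was not among them. The share of all tested genes over that ratio was not computed, so this count is not a trait particular to the members.

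Transcripts stored in the oocyte varied in the same libraries. The mean log2 CPM (counts scaled to library size) of 10 maternal oocyte genes was 0.54, 4.26, 4.204, 2.27 and 4.02 in DDB1_KD, against 2.22, 2.81, 3.68, 1.65 and 1.22 in NC. DDB1_KD 1 was the lowest of the series and DDB1_KD 2, 3 and 5 the highest. Summed over the 13 listed genes found, the level was 11.04 to 385 FPKM in DDB1_KD and 21.7 to 111 FPKM in NC. TLE6, of the same list but under the filter, was listed at 0. Of the list, 10 of 10 tested genes had a fold above 0, with a median log2 fold change of 0.99. In edgeR 0 passed and 1 had an unadjusted p under 0.05. DDB1_KD 1 and 4, the lowest of their group in maternal transcripts, had the highest CUL4A and UBE2M of that group. DDB1_KD 4, at 2.27, was nevertheless above NC 1, 4 and 5. Correlations with the maternal mean follow below, and the part of maternal transcripts in the members' values was not tested.

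**Figure D4:**
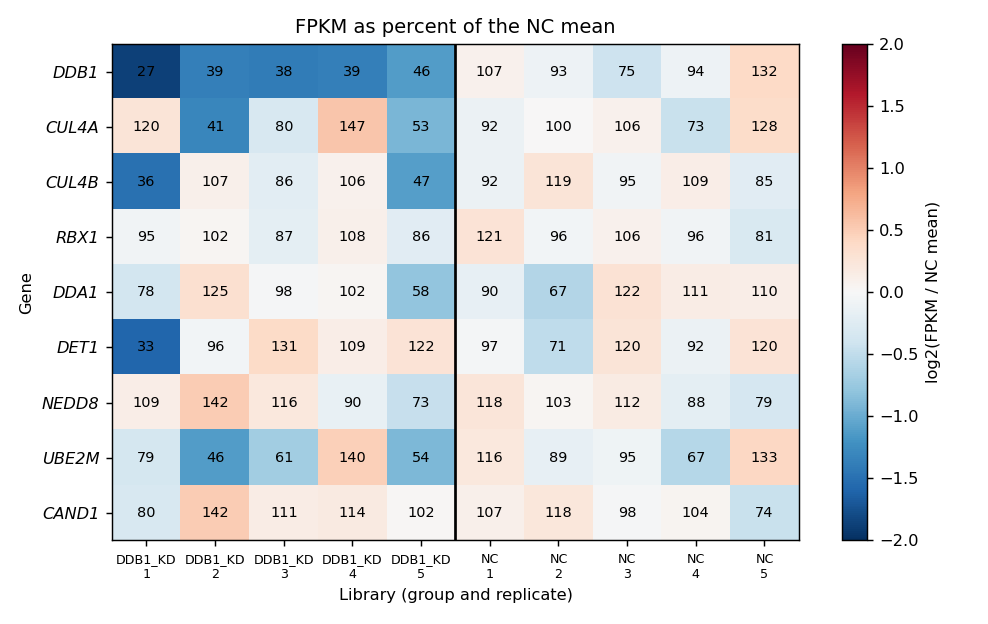
Level of each of the 9 genes in each library as percent of the gene's NC mean (color, with the percent printed), DDB1_KD columns left of NC. DDB1 is low in all 5 DDB1_KD columns (27.3% to 46.2%). CUL4A is low in DDB1_KD 2 and 5 (40.5% and 53.0%), and CUL4B in DDB1_KD 1 and 5 (35.5% and 46.8%).

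Across all 10 libraries CUL4A and UBE2M varied together, with the UBE2M model uncertain as given above. Pearson's r of their log2 values was 0.873 (permutation p = 0.00077, adjusted over 44 relations 0.0339), and Spearman's rho was 0.830 (permutation p = 0.00497, adjusted 0.219). Leaving out the 2 libraries farthest in CUL4A gave r = 0.638. The r between CUL4A and the maternal mean was -0.653, permutation p = 0.0358, adjusted 0.350, and -0.398 without the 2 farthest libraries. Its rho was -0.636. CAND1 and DET1 had r of 0.708 and 0.637 with the maternal mean (permutation p = 0.0195 and 0.0278, adjusted 0.350 each). Without the 2 libraries farthest in each, these were 0.385 and 0.155. UBE2M had r = -0.592, and CUL4B, RBX1, DDA1 and NEDD8 ran from 0.072 to 0.336. CUL4A with UBE2M was the pair that passed by r, and it did not pass by rho.

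Genes whose variation within groups was most like that of DDB1 were sought among 8475 tested genes, over 10 libraries and with group means removed. They were FNDC3A, with r = 0.836, and UBA2, a subunit of the SUMO-activating enzyme, with r = 0.833. RHNO1, an interactor of the checkpoint clamp RAD9-HUS1-RAD1, also had r = 0.833. For CUL4A it was AARS2, the mitochondrial alanyl-tRNA synthetase, with r = 0.969. For CUL4B it was TOPORS, an E3 for ubiquitin and SUMO, with r = 0.880. Members were less like DDB1, from -0.469 for NEDD8 to 0.575 for DET1. These are the top 3 of 8475 values for DDB1 and the highest for each scaffold, over few libraries that share depth and scaling, and are given as a description.

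Other genes of the pathway were followed in fixed lists. Of 12 further genes of the NEDD8 cycle (E1 subunits, a further E2 and its RING partner RNF7, DCN-type proteins and NEDD8 proteases and regulators), 11 were tested. In these, 10 folds were above 0 and 1 below, 0 passed in edgeR, and the median log2 fold change was 0.25, beside 0.00 over all tested genes. NUB1, which directs NEDD8 and its conjugates to degradation, was at 35.9 ± 23.0 FPKM over the 5 DDB1_KD libraries and 24.5 ± 5.53 FPKM over the 5 NC libraries (SD). Its log2 fold change of 0.54 with an SE of 0.34 became 0.13 without DDB1_KD 2. UBA3, the catalytic subunit of the NEDD8 E1, had 0.38 with an SE of 0.27, and 0.25 without DDB1_KD 3. Its partner NAE1 had 0.25 with an SE of 0.25, and 0.12 without DDB1_KD 2. SENP8, a NEDD8 protease, had 0.39 with an SE of 0.37, and 0.004 without DDB1_KD 3.

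Of the other cullins, 4 of 6 were tested, with folds from 0.00 for CUL2 to 0.14 for CUL1 (0.03 without DDB1_KD 2), and 0 passed in edgeR. CUL1, the scaffold of the SCF ligases, stood at 30.5 ± 6.54 FPKM over the 5 DDB1_KD libraries and 27.5 ± 4.83 FPKM over the 5 NC libraries (SD), above both CUL4 scaffolds per length. Of 8 E2 and E3 enzymes that work with cullin ligases, 6 had folds above 0 and 2 below, with a median of 0.22 and 0 passed in edgeR. UBE2G1, an E2 that extends ubiquitin chains on CUL4 substrates in human cells, had the smallest p of these. Its level was 62.9 ± 27.9 FPKM over the 5 DDB1_KD libraries and 45.5 ± 9.02 FPKM over the 5 NC libraries (SD), log2 fold change 0.47 with an SE of 0.26, and 0.22 without DDB1_KD 2.

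Among the partners of DET1, 1 of 4 had a fold above 0 and 3 below, with 0 passed in edgeR. UBE2E2 was at 3.82 ± 2.503 FPKM over the 5 DDB1_KD libraries and 6.69 ± 3.84 FPKM over the 5 NC libraries (SD), log2 fold change -0.72 with an SE of 0.55. It was -0.38 without NC 1 and -1.14 without DDB1_KD 3. COP1, the E3 that DET1 brings to DDB1, had 0.04 with an SE of 0.26, and -0.07 without NC 1. None of these 4 lists held a gene that passed in edgeR, nor one with an unadjusted p under 0.05.

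**Figure D5:**
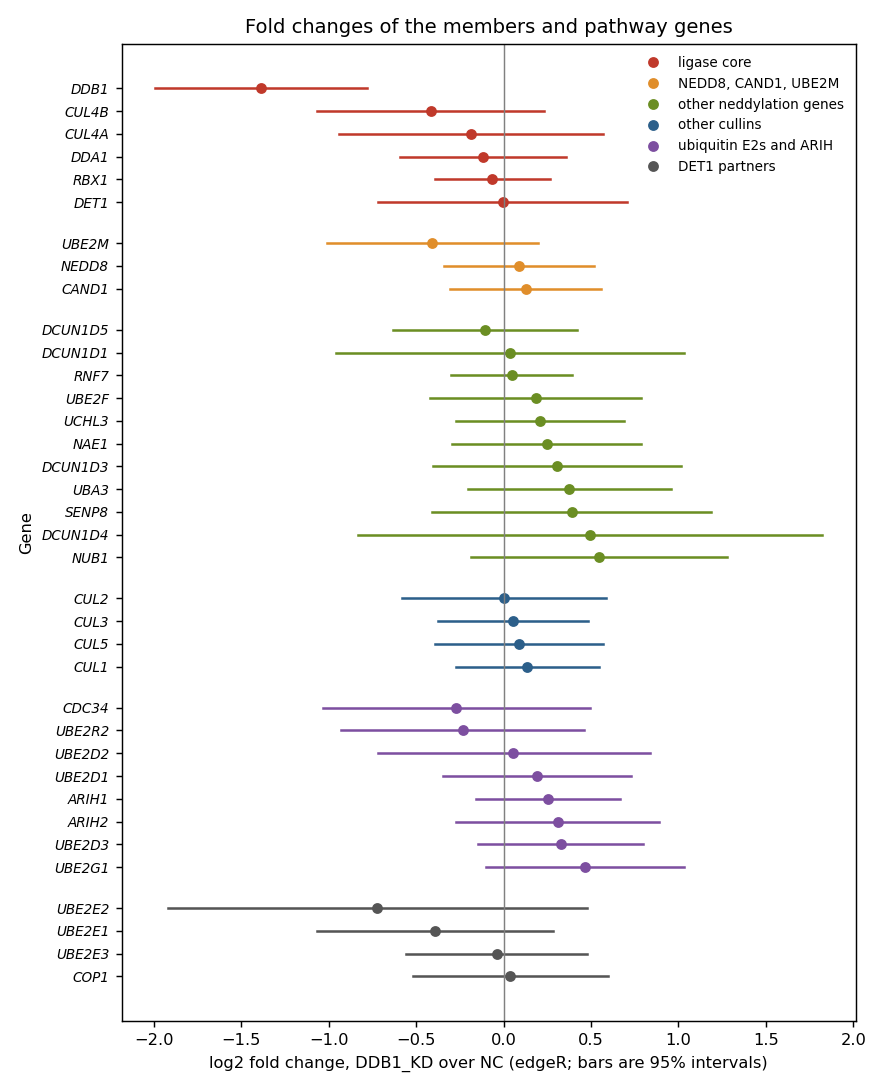
Log2 fold change of DDB1_KD over NC (horizontal axis) for the 9 genes and the 4 pathway lists, colored by list, as points with 95% intervals from edgeR's quasi-likelihood fit across 8476 genes. DDB1 at -1.39 is the gene whose interval, -1.99 to -0.78, leaves out 0.

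The annotation deposited with the table places 4 members (DDB1, CUL4A, CUL4B and RBX1) in nucleotide excision repair and 6 in ubiquitin mediated proteolysis. In the repair pathway 39 of 44 genes were tested, with 19 folds above 0 and 20 below and a median log2 fold change of -0.02. In ubiquitin mediated proteolysis 108 of 130 were tested, with 53 above 0 and 55 below and a median of -0.004. DDB1 was in each pathway the 1 gene with an unadjusted edgeR p under 0.05, beside 3.4% of all tested genes.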

How the data were processed

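Per the labels' protocols, RNA of pig morulae was extracted by column and sequenced in pairs as fragmented cDNA libraries. The submitters' processing notes name the build susScr11 and the tools edgeR, StringTie, HISAT2, fastp, HOMER and ChIPseeker, without roles or versions. FPKM and estimated counts per gene and isoform are as deposited, per the file headers. Deposited estimated counts are whole numbers. Those of isoforms equal isoform FPKM times isoform length times a constant per library, within 1.5 counts plus 0.5%, and those of genes are sums over isoforms, so they may not have the sampling error of read counts. FPKM is 0.0001 where the count is 0, called listed at 0. The sources used here do not give whether counting used strand. The deposited columns spell the DDB1_KD group DBB1 and were matched by group word and number.

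The test is edgeR 4.0.16 (glmQLFit and glmQLFTest, TMM scaling, group alone) in R 4.3.3 on the estimated counts of genes or isoforms with a mean of at least 1 FPKM (8476 genes, 11250 isoforms), with Benjamini-Hochberg adjustment and a threshold of 0.05. Fold changes are DDB1_KD over NC, unshrunken, and their 95% intervals use a t quantile. The fold change intervals take in the spread between libraries. The counting errors of single values, and the limit for an isoform without counts, cover counting error alone. Single values used an exact two-sided permutation over all assignments of the libraries, and correlations 100000 resamples. The fits were checked on simulated data. Alternatives were DESeq2 1.42.0, limma 3.58.1 on log2(FPKM + 1) and log2(FPKM + 0.1), other scalings and filters, an earlier quasi-likelihood method, a replicate block and each library left out. Python 3.11.15 and matplotlib 3.10.9 drew the figures.

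The members, gene lists and tests were chosen with earlier results of these data known. Named genes are the members, the genes of each list with the smallest p, and those most like DDB1 (3), CUL4A and CUL4B by r. The ratios of DDB1 to its partners were added after seeing the data. Other list genes named, such as COP1 and NAE1, were chosen after their values were seen. No sequences are printed.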

Additional observations from a re-analysis of the deposited data

Results flagged for a closer look

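In 2 of 42 groups of 5 libraries examined, 1 library lay far from the rest by Dixon's criterion, which chance gives in about 1 of 20 groups. The log2 ratio of DDB1 to DDA1 was -3.73 in DDB1_KD 5, and the gap to its neighbour was 0.762 of the group's range. The share of the 5-exon DET1 isoform was 10.5% in DDB1_KD 1, with a gap of 0.805 of the range. DDB1_KD 5 had the lowest DDA1 and the highest DDB1 of its group. DDB1_KD 1 had the lowest DET1, CUL4B and maternal oocyte transcripts of the series.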

How the results depend on the processing

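DDB1 kept a negative fold change under all alternatives run, from -1.41 to -0.93 besides the omission of single libraries, which gave -1.49 to -1.28 with adjusted p from 0.339 to 1.0. DESeq2 alone put it past the threshold (-1.36, adjusted p = 0.0069), and the other alternatives did not. The count of genes that passed was 2 with DESeq2, against 0. For isoforms it was 68 with DESeq2, 2 with limma on log2(FPKM + 0.1), 0 with no filter, 2 with edgeR's own filter and 0 to 3 with a library left out, against 1. The share of the main CUL4B isoform differed by -5.79 to -2.57 points with a library left out. The difference between groups in the log2 ratio of CUL4B to CUL4A was 0.18 without DDB1_KD 1, in a range of -0.57 to 0.18. Fold changes near 0 turned sign as follows. With a library left out, CUL4A ran from -0.38 to 0.005 (without DDB1_KD 2), RBX1 from -0.149 to 0.021 (without NC 1) and DDA1 from -0.228 to 0.004 (without DDB1_KD 5). DET1 was 0.018 with DESeq2's size factors in edgeR and in DESeq2, 0.23 without DDB1_KD 1, 0.022 without DDB1_KD 2, 0.06 without NC 3 and 0.05 without NC 5. NEDD8 ran from -0.014 (without DDB1_KD 2) to 0.187 and was -0.002 without NC 5. The cause was not tested. With a pseudocount of 1 the DDB1 ratios to DET1 (-0.82, adjusted exact p = 0.0635) and UBE2M (-0.49, 0.175) no longer passed. Same-numbered libraries deviated together at correlations of -0.14 to 0.35, 1 of 5 best with its own number. No clear pairing by number was seen, though so few libraries cannot exclude it. With the replicate block DDB1 was -1.39 (adjusted p = 0.946), and 0 genes and 1 isoform passed. At 142 to 262 counts in DDB1_KD, DDB1 is measured to a counting error of 6.18% to 8.39%.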
